A study of Homo sapiens with 18 samples.

Results

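Irradiation-induced senescence in vehicle-treated IMR90 cells, a line of primary human lung fibroblasts, was read from 3 irradiated libraries set against 3 proliferating libraries, across all genes. Both groups were wild type and received DMSO, the solvent of the compounds used elsewhere in the series. The irradiated cells got DMSO from day 4 after X-ray exposure and were collected on day 11, whereas no collection day was given for the proliferating cells, so age in culture and irradiation cannot be told apart. These 6 libraries were taken from 18, and the other 12 held proliferating and irradiated cells given RG7388 or HDM201, both inhibitors of MDM2, the ubiquitin ligase that keeps p53 low. Reads from polyadenylated RNA were counted per gene, and 18151 of 60623 listed genes had enough reads to be tested. IMR90 derives from 1 donor, no label says that replicates were separate cultures, and the p-values therefore measure only the spread between these samples. In such bulk RNA, fewer cells of a kind and less RNA per cell cannot be told apart.

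Senescent cells have left the cell cycle for good but stay alive, enlarged and metabolically active. After irradiation, lasting DNA damage signaling keeps the p53 and RB pathways on, which stops division, while inflammatory and secretory genes are switched on. Because those programs are well known, the members of 5 gene lists (p53 targets, NF-kB cytokines, interferon-stimulated genes, mitosis and replication, fibrillar matrix and contractile genes) were kept in the fit, and their members are described here mainly where they also belong to one of 43 other lists that were read instead.

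Library sizes ran from 25122199 to 66647700 reads among these 6 libraries and from 21609198 to 66647700 among all 18. Proliferating replicate 1, the largest library, had reads in 35812 genes, against 25957 and 27935 in the others of its group. Another library stood apart in correlation and in mitochondrial reads. Irradiated replicate 1 correlated at 0.979 on average with its group, the lowest of the 6, and reads from mitochondrial genes made up 0.668% of it against 3.13% and 3.15% in the other irradiated libraries and 2.94%, 2.98% and 2.61% in the proliferating ones. Where a count or call below was found to rest on it, the value without it is given. All 12 fibroblast markers checked were above the filter, 8 of them called lower and 1 higher at a median log2 fold change of -0.61, with VIM at 6187, 6442 and 6067 CPM (reads per gene, scaled to a common library size) in proliferating and 2736, 3427 and 3419 CPM in irradiated cells, and LUM at 94.7, 83.7 and 87.1 and 87.3, 94.8 and 80.4 CPM. Of the markers of other cells, 6 of 12 epithelial, 8 of 11 endothelial and 3 of 12 leukocyte genes passed the filter. Of those, 2 epithelial genes were called higher and 3 lower, and 1 endothelial gene higher and 2 lower. The epithelial marker KRT18 was at 210, 216 and 201 CPM before and 93.3, 82.2 and 89.7 CPM after. KRT19, another, was at 25.1, 24.2 and 24.4 CPM and then 46.3, 39.2 and 49.8 CPM. Much lower, EPCAM lay between 0.539 and 1.32 CPM in the 6 libraries and PECAM1 between 0.129 and 0.298 CPM. CD14 and CD68, which fibroblasts can also make, were both called higher, with CD14 at 0.124, 0.0862 and 0.109 CPM before and 1.28, 0.621 and 0.835 CPM after irradiation.

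A gene was called when its adjusted p was under 0.05. Across all genes tested, 26.3% were called higher and 25.3% lower after irradiation, 51.6% in all, and the median log2 fold change was 0.05. Calls of at least 2-fold took in 13.5% of genes on the higher side and 9.22% on the lower side. The 100 most abundant genes of each library held 29.9% ± 0.313 of reads in proliferating cells and 23.4% ± 0.0835 in irradiated cells (SD, n = 3 each, two-sided exact permutation p = 0.1, the smallest that 3 against 3 allows). When libraries were scaled by their totals alone, without the composition factors, the median rose from 0.05 to 0.34, and 39.7% of genes were then called higher and 15.8% lower.

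Among the 43 lists read, metal handling had the highest share of members called higher. Metallothioneins are small cysteine-rich proteins that bind zinc and copper, and their promoters carry metal response elements (core TGCNCNC) read by the zinc sensor MTF1. To show these letters, the 250 bases before the RefSeq start site of the most abundant metallothionein gene and of MT1X are printed below (build GRCh38.p14, credited to RefSeq, 5′ to 3′ along the gene), with each match on either strand in capitals. MT2A lies at chr16:56608334-56608583 on the plus strand and holds 7 matches. MT1X lies at chr16:56682220-56682469 on the plus strand and holds 4. Among 35116 promoter windows, searched over the same 250 bases before the start, 49.1% held at least 1 match and 1.77% at least 4. This motif was added after the values had been seen, and a match is a description of letters, not a site.
MT2A: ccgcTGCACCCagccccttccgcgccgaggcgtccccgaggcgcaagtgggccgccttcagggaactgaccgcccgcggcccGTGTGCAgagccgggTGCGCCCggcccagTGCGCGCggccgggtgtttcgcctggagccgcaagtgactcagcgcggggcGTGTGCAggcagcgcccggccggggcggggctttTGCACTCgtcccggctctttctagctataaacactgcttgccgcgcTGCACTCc
MT1X: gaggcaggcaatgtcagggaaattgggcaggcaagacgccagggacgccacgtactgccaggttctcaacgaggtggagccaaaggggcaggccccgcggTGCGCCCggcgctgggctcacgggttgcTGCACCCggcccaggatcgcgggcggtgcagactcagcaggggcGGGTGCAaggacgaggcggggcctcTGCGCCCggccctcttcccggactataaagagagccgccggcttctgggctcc

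MT2A was at 404, 590 and 512 CPM in the proliferating libraries and 1637, 997 and 1011 CPM in the irradiated ones. All 3 irradiated libraries stood above all 3 proliferating ones, irradiated replicate 1 highest, and the log2 fold change was 1.28 ± 0.21 (SE, edgeR adjusted p = 8.24e-05). MT1X went from 5.25, 6.29 and 5.14 CPM to 26.9, 17.6 and 17.7 CPM, again without overlap (log2 fold change 1.91 ± 0.19, edgeR adjusted p = 1.03e-08). MT1E, again highest in irradiated replicate 1, had 37.7, 44.5 and 41.8 CPM before and 146, 91.5 and 87.7 CPM after. MT1G was nearly silent in proliferating cells at 0.0927, 0 and 0 CPM and reached 9.01, 6.19 and 6.41 CPM after irradiation. These genes have close copies on the same chromosome arm, so reads may be split among them. All 7 metallothionein genes tested (MT1A, MT1E, MT1F, MT1G, MT1M, MT1X and MT2A) were called higher, although the libraries of MT1A overlapped and its call was lost without irradiated replicate 1 (log2 fold change 1.04, edgeR adjusted p = 0.389) or without proliferating replicate 2 or 3 (edgeR adjusted p = 0.0949 and 0.14).

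Transporters of zinc and copper completed that list. Of its 27 tested members 18 were called higher and 0 lower, with a median log2 fold change of 0.69. Without irradiated replicate 1 the counts were 16 and 0. SLC30A1, which exports zinc from the cell, was at 21.5, 18.7 and 22.4 CPM and then 75.2, 61.2 and 60 CPM (log2 fold change 1.65 ± 0.15, edgeR adjusted p = 4.79e-09). SLC39A8, an importer of zinc and manganese, moved from 0.849, 0.603 and 0.683 to 3.25, 2.41 and 3.26 CPM. SLC39A14, another importer, was at 131, 140 and 145 CPM and then 214, 222 and 219 CPM, a narrow but separate pair of ranges. Transcripts of the sensor itself overlapped between groups, with MTF1 at 22.1, 24.5 and 22.9 CPM before and 20.3, 25.9 and 23.8 CPM after (log2 fold change 0.01, edgeR adjusted p = 0.948).

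Iron genes leaned the same way, with 15 of 28 tested members of the iron and heme list called higher and 3 lower, at a median of 0.41. The light chain of ferritin, the iron storage cage, was at 756, 908 and 794 CPM for FTL before and 2161, 2278 and 2275 CPM after (log2 fold change 1.45 ± 0.14, edgeR adjusted p = 7.79e-09). The heavy chain gene FTH1 was at 587, 622 and 541 CPM and then 1223, 1503 and 1477 CPM. Both chains have many processed copies in the genome, and multi-mapping reads could shift their levels. TFRC, the transferrin receptor that brings iron in, was also higher, at 118, 116 and 131 CPM against 267, 244 and 240 CPM. So was SLC40A1, which encodes ferroportin, the iron exporter, at 1.22, 1.16 and 1.34 CPM against 6.35, 4.8 and 6.28 CPM. SLC11A2, the transporter that moves iron out of endosomes, had 21.5, 24.8 and 22.4 CPM and 74.4, 86.6 and 81.2 CPM (log2 fold change 1.82 ± 0.12, edgeR adjusted p = 2.27e-11). Importer, exporter and storage genes thus rose together at the RNA level. Among the members called lower were FECH, an enzyme of heme synthesis, and the reductase gene STEAP1, with log2 fold changes of -0.56 and -0.57, the last at an edgeR adjusted p of 0.0499 that passed the threshold in few of the other settings.

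**Figure D1:**
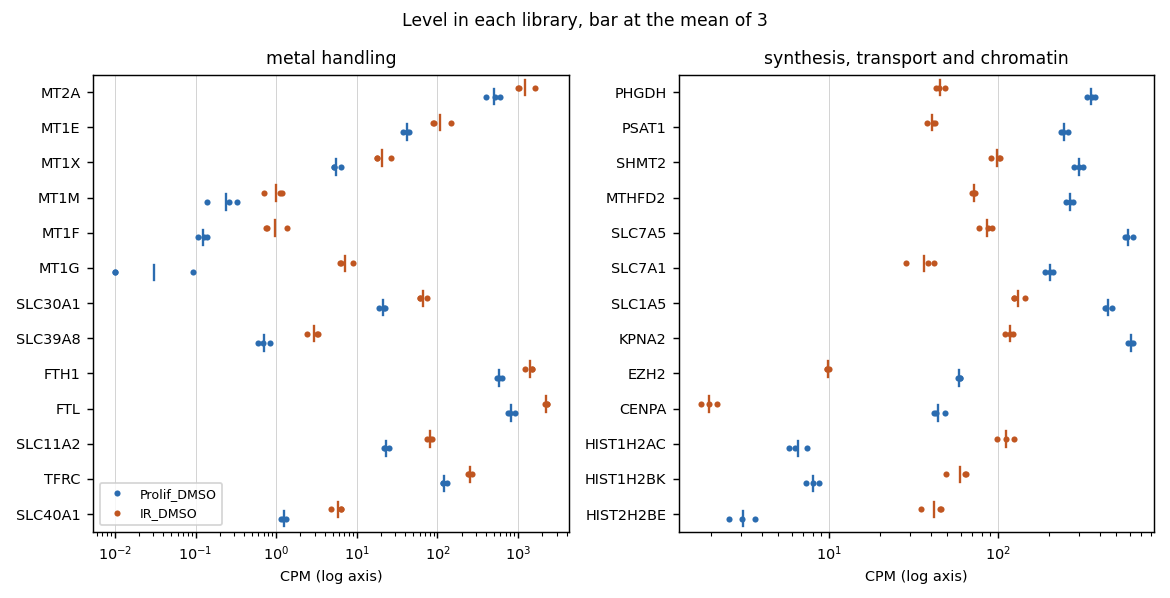
Level of 26 genes in each of the 6 libraries on a log axis in CPM, proliferating in blue and irradiated in orange, each point 1 library and each bar the mean of 3. The 13 metal handling genes on the left are higher after irradiation, with MT1G from at most 0.0927 CPM to at least 6.19 CPM (values of 0 are drawn at 0.01), while on the right the genes from PHGDH to CENPA are lower and 3 clustered histone genes are higher.

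Genes that make building blocks moved the other way. The nucleotide and one-carbon synthesis list had 30 of 33 tested members called lower and 0 higher, with a median of -0.90, and 26 lower and 1 higher when libraries were scaled by totals alone. PHGDH, the first enzyme of serine synthesis, was at 334, 377 and 358 CPM in proliferating and 48.4, 44.7 and 42.7 CPM in irradiated cells. The 2 sets of values lay far apart (log2 fold change -2.98 ± 0.12, edgeR adjusted p = 1.77e-15). PSAT1, the next enzyme of that route, went from 236, 260 and 243 CPM to 42.6, 41.3 and 38.1 CPM. MTHFD2, which handles one-carbon units in mitochondria, had 251, 268 and 277 CPM and 73.3, 71.7 and 70.4 CPM. SHMT2, which makes those units from serine, was at 301, 319 and 281 CPM and 90.4, 103 and 102 CPM. None of these serine and one-carbon values overlapped between groups. TK1, the thymidine kinase of dividing cells, fell from 186, 219 and 184 CPM to 28.4, 24.2 and 24.6 CPM.

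Amino acid transporters were split. Of 29 tested members 14 were called lower and 7 higher, with a median of -0.37, or 11 and 10 at -0.08 with totals alone. SLC7A5, the light chain of the main carrier of large neutral amino acids, was at 582, 625 and 567 CPM before and 77.4, 87.7 and 91.7 CPM after (log2 fold change -2.79 ± 0.13, edgeR adjusted p = 3.4e-14). SLC7A1, a carrier of arginine and lysine, went from 190, 212 and 203 CPM to 28.7, 38.3 and 41.7 CPM. SLC1A5, which carries glutamine, had 428, 471 and 435 CPM and then 145, 125 and 125 CPM. In contrast, SLC43A2, another carrier of large neutral amino acids, rose from 1.34, 1.81 and 1.75 CPM to 13.1, 16.1 and 16.3 CPM. SLC6A15, a sodium-coupled carrier of branched-chain amino acids and proline, rose from 3.3, 4.05 and 3.53 CPM to 28.5, 26.5 and 24.9 CPM (log2 fold change 2.89 ± 0.21, edgeR adjusted p = 5.82e-11). SLC1A1, a glutamate carrier, was at 4.35, 4.78 and 4.21 CPM and 18.2, 15.3 and 17.6 CPM. Carriers of the same kinds of amino acid were therefore found on both sides.

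The enzymes that load amino acids onto tRNA had 16 of 20 tested genes called lower and 0 higher, with a median of -0.70. GARS, the glycine enzyme, was at 525, 556 and 546 CPM and then 271, 257 and 246 CPM, and YARS, the tyrosine enzyme, was at 292, 298 and 283 CPM and then 113, 118 and 115 CPM. Splicing factors and hnRNPs, proteins that bind and process pre-mRNA, had 40 of 52 called lower and 0 higher at a median of -0.83. HNRNPD went from 354, 332 and 327 CPM to 112, 105 and 104 CPM (log2 fold change -1.66 ± 0.09, edgeR adjusted p = 2.14e-13), and HNRNPAB, a member of the same family, from 355, 363 and 325 CPM to 113, 105 and 115 CPM. Nuclear pore and transport genes had 40 of 57 called lower and 1 higher at a median of -0.83. KPNA2, an importin that carries proteins into the nucleus, was at 591, 616 and 627 CPM and then 110, 123 and 118 CPM (log2 fold change -2.39 ± 0.09, edgeR adjusted p = 8.85e-16). The member called higher was KPNA5, another importin of the same family, at 7.27, 6.59 and 7.13 CPM against 10.2, 12.8 and 11.2 CPM. For the tRNA enzymes, splicing and pore lists the median stayed below 0 with library totals alone, at -0.40, -0.54 and -0.53.

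Ribosomal genes were less clear. Ribosome biogenesis and RNA polymerase I genes had 32 of 47 called lower and 2 higher at a median of -0.51, and -0.22 with totals alone. FBL, which methylates ribosomal RNA, fell from 177, 193 and 174 CPM to 73.9, 57.1 and 58.1 CPM. The 72 cytosolic ribosomal protein genes tested had a median of -0.28 with 29 called lower and 0 higher, but 0.01 with 3 lower and 7 higher under totals alone. As a share of all reads these proteins took 3.70% ± 0.286 in proliferating and 3.63% ± 0.151 in irradiated cells (SD, n = 3 each, two-sided exact permutation p = 0.8). The mitochondrial ribosome list had a median of -0.10, or 0.20 with totals alone, and 20 of 75 lower and 6 higher. In the proteasome list the median was -0.15, or 0.14 with totals alone, with 16 of 39 called lower and 4 higher.

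Energy and lipid genes moved as a mixture. Fatty acid oxidation and peroxisome genes had 18 of 36 called higher and 5 lower at a median of 0.32, or 15 and 5 at 0.19 without irradiated replicate 1. CPT1A, the enzyme that commits fatty acids to mitochondrial oxidation, was at 23.1, 20.6 and 22.5 CPM and then 40.6, 39.2 and 37.9 CPM (log2 fold change 0.83 ± 0.11, edgeR adjusted p = 6.1e-07). ETFB, a subunit of the flavoprotein that takes up the electrons of that pathway, was at 23.6, 25.2 and 22.7 CPM and then 67.8, 51 and 55.1 CPM. Fatty acid and triglyceride synthesis had 11 of 29 called higher and 10 lower, or 14 and 6 with totals alone. SCD, which puts a double bond into stearate, was at 190, 211 and 200 CPM and then 88.3, 108 and 108 CPM, while DGAT2, which completes triglycerides, was at 0.386, 0.302 and 0.273 CPM and then 1.66, 2.51 and 3.42 CPM. Glycolysis had 7 of 24 lower and 3 higher at a median of -0.06, or 0.23 with totals alone. ENO1, enolase, was at 3199, 3696 and 3367 CPM and then 1409, 1593 and 1619 CPM, and HK2, a hexokinase, at 88.1, 85.9 and 90.7 CPM and then 143, 132 and 124 CPM, so that enzymes of one pathway lay on opposite sides.

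Nuclear genes of oxidative phosphorylation and the TCA cycle had 16 of 57 called higher and 8 lower at a median of 0.05. With totals alone these were 36 and 4 at 0.35. The 8 lower ones included enzymes of the cycle itself. IDH2, the mitochondrial isocitrate dehydrogenase, went from 137, 145 and 137 CPM to 47.4, 47 and 49.8 CPM (log2 fold change -1.54 ± 0.10, edgeR adjusted p = 1.8e-11). CS, citrate synthase, went from 207, 238 and 225 CPM to 79, 113 and 113 CPM, and FH, fumarase, from 81.6, 92 and 86.7 CPM to 51.8, 46.5 and 42.7 CPM. Genes of the mitochondrial chromosome rested on 1 library. MT-CO3, a subunit of cytochrome oxidase, was at 2759, 3054 and 2521 CPM in proliferating and 200, 1822 and 1811 CPM in irradiated cells, so irradiated replicate 1 was about an order of magnitude below the other irradiated libraries. Of 13 such genes tested 2 were called lower at a median of -0.76, and without that library 5 were called lower at a median of -0.32. MT-CO3 was not called in the reported fit (log2 fold change -1.12, edgeR adjusted p = 0.0899). Without that library it was called lower (-0.64, edgeR adjusted p = 0.000282). With all 6 libraries the share of mitochondrial reads did not separate the groups (two-sided exact permutation p = 1). The other irradiated libraries, at 3.13% and 3.15%, lay above the proliferating ones, at 2.94%, 2.98% and 2.61%. These shares are of all reads, without the composition factors that the calls use.

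Sphingolipid genes had 15 of 35 called higher and 9 lower at a median of 0.19. SPHK1, which makes sphingosine 1-phosphate, fell from 96.7, 113 and 88.9 CPM to 18.5, 10.3 and 11.9 CPM (log2 fold change -2.87 ± 0.18, edgeR adjusted p = 1.76e-11). ASAH1, the lysosomal ceramidase that frees sphingosine, rose from 27.4, 24.7 and 28.2 CPM to 104, 93.1 and 84.5 CPM. The enzyme that supplies sphingosine and the one that phosphorylates it thus changed in opposite directions. In glycosaminoglycan synthesis, 17 of 38 genes were called higher and 12 lower. XYLT1, which starts the sugar chain on proteoglycans, fell from 182, 185 and 191 CPM to 24.1, 30.1 and 31.3 CPM, and CHSY1, which polymerizes chondroitin, from 103, 114 and 119 CPM to 43.7, 42.4 and 43.3 CPM. CSGALNACT1, which starts the chondroitin branch, rose from 8.35, 7.59 and 9.92 CPM to 96.4, 89.4 and 88.7 CPM (log2 fold change 3.4 ± 0.14, edgeR adjusted p = 2.03e-15). SULF2, an enzyme that removes sulfate from heparan sulfate outside the cell, rose from 1.65, 1.77 and 1.67 CPM to 10.1, 16 and 18.4 CPM. HAS2, the main hyaluronan synthase of fibroblasts, was at 131, 124 and 135 CPM before and 15.7, 26.3 and 25.4 CPM after.

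**Figure D2:**
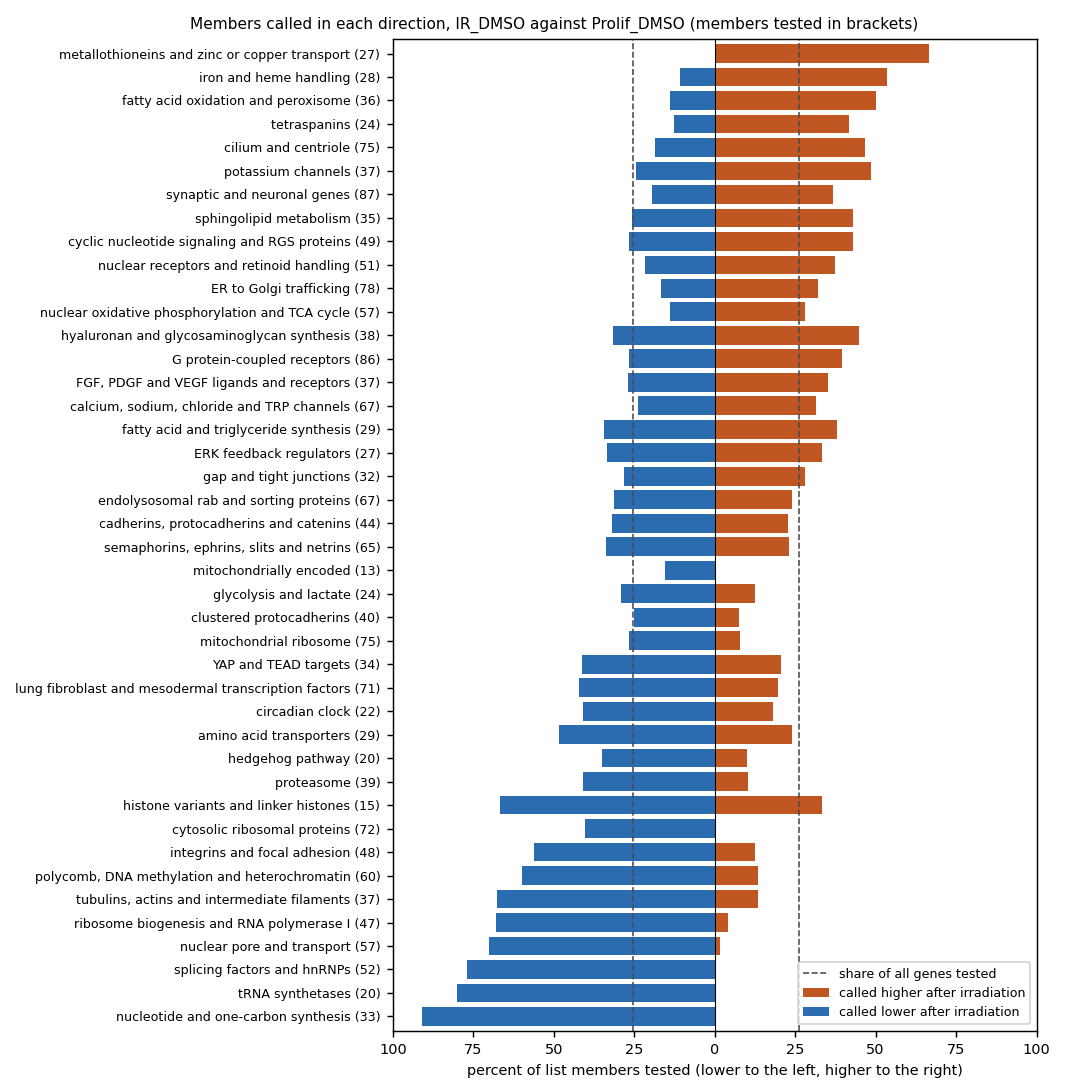
Share of the tested members of 42 gene lists called higher (orange, right) or lower (blue, left) after irradiation, with members tested in brackets and dashed lines at the shares over all genes, 26.3% and 25.3%. Nucleotide and one-carbon synthesis, tRNA synthetases and splicing sit furthest to the lower side and metal handling furthest to the higher side. Lists near the middle depend on the scaling, and with library totals alone the median of the cytosolic ribosomal protein list turned from -0.28 to 0.01.

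Histone genes did not move together, either between or within classes. Most histone genes lie in clusters, are used in S phase and make mRNA without a poly(A) tail, whereas a few also yield polyadenylated mRNA when cells stop dividing. The promoters of HIST1H2BK and HIST1H2AC, which were called higher, and of CENPA, which was called lower, are printed below (250 bases before the RefSeq start, GRCh38.p14) because they share CCAAT boxes, the letters bound by NF-Y. Capitals mark CCAAT on either strand and, in CENPA, also the cell cycle element TTTGAA and the E2F core GCGGGAA. HIST1H2BK (now H2BC12) lies at chr6:27146856-27147105 on the minus strand with 6 CCAAT matches, a number reached by 0.105% of all windows. HIST1H2AC (now H2AC6) lies at chr6:26123922-26124171 on the plus strand with 3, a number reached by 2.93%. CENPA lies at chr2:26785806-26786055 on the plus strand with 2 CCAAT matches and 1 of each other motif. At least 1 CCAAT match was in 32% of all windows, so sharing this box is common.
HIST1H2BK: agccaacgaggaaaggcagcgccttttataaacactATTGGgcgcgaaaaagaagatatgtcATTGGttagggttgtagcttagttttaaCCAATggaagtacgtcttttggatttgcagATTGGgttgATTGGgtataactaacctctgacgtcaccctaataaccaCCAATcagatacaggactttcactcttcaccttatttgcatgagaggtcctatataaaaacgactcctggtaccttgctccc
HIST1H2AC: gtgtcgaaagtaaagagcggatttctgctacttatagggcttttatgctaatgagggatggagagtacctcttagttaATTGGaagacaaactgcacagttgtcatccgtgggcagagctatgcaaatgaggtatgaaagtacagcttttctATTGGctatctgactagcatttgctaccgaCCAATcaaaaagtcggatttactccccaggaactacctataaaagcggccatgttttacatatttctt
CENPA: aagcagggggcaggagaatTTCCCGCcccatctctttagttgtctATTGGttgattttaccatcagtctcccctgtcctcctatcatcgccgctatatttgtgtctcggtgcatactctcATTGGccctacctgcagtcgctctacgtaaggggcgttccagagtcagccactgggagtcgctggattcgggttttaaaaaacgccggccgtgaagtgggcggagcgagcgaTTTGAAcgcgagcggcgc

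HIST1H2AC was at 6.3, 5.82 and 7.41 CPM in proliferating and 99.1, 124 and 111 CPM in irradiated cells (log2 fold change 4.09 ± 0.12, edgeR adjusted p = 2.97e-17). HIST1H2BK had 8.69, 8.02 and 7.32 CPM and then 49.4, 64.3 and 64.1 CPM. HIST2H2BE, another H2B gene, was at 3.63, 3.06 and 2.57 CPM and then 35, 45.7 and 45.4 CPM, and the linker histone gene HIST1H1C at 6.49, 4.31 and 5.36 CPM and then 40.4, 40.5 and 40.3 CPM. No library of one group reached into the other for these 4 genes. Over 53 clustered histone genes tested, 21 were called higher, each at least 2-fold, and 2 lower. The rest were not called, and the median log2 fold change was 0.33. Their summed level was 101, 54.6 and 55.1 CPM in proliferating and 345, 411 and 394 CPM in irradiated cells. HIST1H2AC alone gave 99.1, 124 and 111 CPM of the irradiated sums. The genes called lower were HIST1H4C and HIST1H3J, both at under 4 CPM. Proliferating replicate 1 was the highest of the 6 libraries for both, and it also gave the highest sum of its group. The call of HIST1H3J was lost without it (log2 fold change -1.16, edgeR adjusted p = 0.265) or without irradiated replicate 2 or 3 (edgeR adjusted p = 0.132 and 0.139). Since the libraries were made from poly(A) RNA, unpolyadenylated histone mRNA was largely out of reach, and its level in either state was not measured.

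Variant histone genes mostly went down, again as read from polyadenylated mRNA only. CENPA, the histone H3 of centromeres, fell from 42.9, 48.4 and 42 CPM to 1.74, 1.96 and 2.18 CPM (log2 fold change -4.50 ± 0.16, edgeR adjusted p = 4.09e-16). H2AFX, the variant phosphorylated at DNA breaks, fell from 246, 269 and 220 CPM to 45.4, 35.5 and 39.1 CPM. H2AFZ, the variant found at promoters, fell from 436, 522 and 486 CPM to 164, 130 and 126 CPM. H2AFJ, a variant that has been tied to senescent fibroblasts, rose from 14.6, 18.6 and 14.8 CPM to 54.5, 50.3 and 49.7 CPM (log2 fold change 1.69 ± 0.13, edgeR adjusted p = 1.19e-10). Chromatin regulators leaned down as well, with 36 of 60 polycomb, DNA methylation and heterochromatin genes called lower and 8 higher at a median of -0.40. With totals alone 25 were lower and 14 higher at -0.11. UHRF1, which brings the maintenance methylase to replicated DNA, fell from 132, 136 and 137 CPM to 17, 12.9 and 15.4 CPM, and EZH2, the main polycomb methylase, from 59.3, 57.9 and 59.7 CPM to 9.78, 9.79 and 10 CPM. EZH1, its counterpart in nondividing cells, was higher at 15.8, 18 and 16.9 CPM against 24.5, 28.9 and 27.4 CPM. Likewise CBX2 fell from 9.1, 10.6 and 9.65 CPM to 0.956, 0.671 and 0.835 CPM while CBX7, a polycomb subunit of the same family, rose from 2.46, 2.11 and 3.03 CPM to 7.67, 7.53 and 7.65 CPM.

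Membrane excitability genes were among the less obvious changes. Over all genes, low ones leaned higher, with medians of 0.42 and 0.19 in the lowest and next lowest of 4 equal groups by mean level. The part of expression level in the channel and synaptic medians that follow was not tested. Of 37 potassium channel genes tested 18 were called higher and 9 lower at a median of 0.71. KCNJ2, an inward rectifier that holds the resting potential, was at 1.71, 1.94 and 1.86 CPM before and 33.8, 35.9 and 36.1 CPM after (log2 fold change 4.27 ± 0.15, edgeR adjusted p = 4.09e-16). KCNG1, a modifier subunit of voltage-gated channels, fell from 174, 186 and 164 CPM to 32.7, 32.1 and 35.4 CPM, and KCNMA1, the large calcium-activated channel, from 115, 119 and 120 CPM to 42.2, 51.6 and 51.2 CPM. The list of calcium, sodium, chloride and TRP channels had 21 of 67 higher and 16 lower at 0.32. SCN4B, an accessory subunit of sodium channels, rose from 0.633, 0.345 and 0.601 CPM to 11.8, 11 and 12.1 CPM. TRPA1, a channel opened by irritants and oxidants, rose from 123, 109 and 127 CPM to 360, 445 and 384 CPM. ANO1, a calcium-activated chloride channel, fell from 79.1, 80.4 and 78.2 CPM to 17.1, 22.2 and 24.5 CPM (log2 fold change -1.90 ± 0.12, edgeR adjusted p = 4.51e-12).

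G protein-coupled receptors had 34 of 86 called higher and 23 lower at a median of 0.04, or 42 and 15 at 0.33 with totals alone. BDKRB2, the bradykinin receptor, rose from 78.6, 79.6 and 78.1 CPM to 315, 321 and 296 CPM, whereas PTGER2, a receptor for prostaglandin E2, fell from 65.6, 68 and 69.7 CPM to 24.8, 24.3 and 24.4 CPM. Cyclic nucleotide and RGS genes had 21 of 49 higher and 13 lower. PRKG2, a kinase activated by cGMP, rose from 0.911, 0.603 and 0.574 CPM to 9.9, 13.8 and 14.4 CPM (log2 fold change 4.11 ± 0.27, edgeR adjusted p = 1.42e-11). PDE4B, which breaks down cAMP, rose from 4.88, 3.53 and 4.18 CPM to 18.1, 21.7 and 20.4 CPM. Of the RGS proteins, which switch off G proteins, RGS5 rose from 1.99, 0.948 and 1.15 CPM to 10.2, 12.3 and 12.5 CPM and RGS4 fell from 81.6, 85.9 and 84.6 CPM to 23.4, 22.6 and 24.2 CPM. Synaptic and neuronal genes had 32 of 87 higher and 17 lower at 0.28. BDNF, a neurotrophin that fibroblasts also make, rose from 92.5, 97.5 and 99.4 CPM to 266, 266 and 256 CPM, and GABRA2, a subunit of the GABA receptor, from 0.726, 0.172 and 0.601 CPM to 7.48, 8.42 and 7.81 CPM. NRXN3, a synaptic adhesion protein, fell from 27.5, 25.1 and 28.1 CPM to 4.36, 6.78 and 6.3 CPM.

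Integrin and cytoskeleton genes were mostly lower, and other adhesion genes were mixed. Integrins and focal adhesion genes had 27 of 48 called lower and 6 higher at a median of -0.53, and -0.24 with totals alone. ITGA5, the fibronectin receptor chain, fell from 1447, 1483 and 1424 CPM to 433, 516 and 549 CPM, and ITGA11, a collagen receptor chain, from 181, 179 and 177 CPM to 56.2, 66 and 72.5 CPM. Tubulins, actins and intermediate filaments had 25 of 37 lower and 5 higher at -0.72. TUBB4B, a beta tubulin with close paralogs, fell from 1035, 1186 and 1018 CPM to 253, 303 and 320 CPM. Among cadherins, CDH2, the N-cadherin of mesenchymal cells, fell from 274, 277 and 283 CPM to 34.6, 40 and 42.7 CPM (log2 fold change -2.83 ± 0.11, edgeR adjusted p = 8.58e-16), and the list as a whole had 14 of 44 lower and 10 higher at a median of 0.25, or 10 lower and 17 higher at 0.53 with totals alone. CLDN1, a claudin of tight junctions, rose from 49.5, 55.8 and 52.1 CPM to 258, 311 and 310 CPM, and RND3, a small GTPase that opposes actomyosin tension, rose from 196, 171 and 194 CPM to 978, 900 and 804 CPM. Semaphorins and other guidance genes had 22 of 65 lower and 15 higher at -0.05, or 0.23 with totals alone, and SEMA7A, a membrane-anchored semaphorin, fell from 239, 256 and 223 CPM to 47.8, 36.1 and 40.6 CPM.

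Cilium and centriole genes went the other way as a set of counts, with 35 of 75 called higher and 14 lower at a median of 0.46. BBS2, part of the complex that carries cargo into cilia, rose from 12.4, 10.7 and 12.2 CPM to 34.6, 28.9 and 28.4 CPM (log2 fold change 1.38 ± 0.11, edgeR adjusted p = 6.88e-10). DYNC2LI1, a subunit of the cilium's retrograde motor, rose from 4.19, 4.27 and 4.89 CPM to 14.6, 14.1 and 10.2 CPM. DNAH5, an outer arm dynein of motile cilia, rose from 17.7, 14.9 and 19.4 CPM to 57.9, 54.9 and 54 CPM. CEP164 and CEP89, parts of the appendages that dock a centriole to the membrane, were lower, CEP164 at 59.1, 56.7 and 57.3 CPM before and 28, 31.1 and 30.9 CPM after. Hedgehog signaling, which runs through the cilium, had 7 of 20 lower and 2 higher at -0.23, or 0.06 with totals alone. Its target genes HHIP and GLI1 fell, HHIP from 22.1, 19.5 and 21.7 CPM to 2.04, 2.41 and 3.37 CPM and GLI1 from 6.32, 6.29 and 5.63 CPM to 0.744, 0.696 and 1.16 CPM.

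Nuclear receptors and retinoid genes had 19 of 51 called higher and 11 lower at a median of 0.30. RDH10, which oxidizes retinol toward retinoic acid, rose from 27.8, 29.4 and 32.4 CPM to 193, 150 and 149 CPM. CYP26B1, which destroys retinoic acid, rose from 0.0618, 0.0862 and 0.0273 CPM to 5.82, 4.55 and 4.98 CPM (log2 fold change 6.43 ± 0.50, edgeR adjusted p = 2.96e-10). Both a synthetic and a catabolic step therefore rose. NR4A2, an orphan receptor induced by many signals, rose from 3.35, 2.24 and 3.23 CPM to 35.3, 44.6 and 39.8 CPM, and HSD17B2, which inactivates estradiol and testosterone, from 2.08, 2.37 and 2.02 CPM to 23.7, 19.4 and 18.4 CPM. NR2F2, an orphan receptor of mesenchyme, fell from 231, 220 and 207 CPM to 85.6, 85.6 and 91.8 CPM.

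Transcription factors of lung mesenchyme had 30 of 71 called lower and 14 higher at a median of -0.26, or 0.03 with totals alone. PRRX1, a marker of fibroblasts, fell from 95.4, 88.7 and 98 CPM to 17.3, 23.1 and 25.2 CPM, and FOXC2 from 21.8, 22.2 and 20.2 CPM to 3.85, 3.65 and 5.31 CPM. TCF21, a factor of interstitial fibroblasts and lipofibroblasts, rose from 9.22, 9.22 and 10.3 CPM to 83.9, 97.7 and 94.5 CPM (log2 fold change 3.26 ± 0.12, edgeR adjusted p = 8.85e-16). Clock genes had 9 of 22 lower and 4 higher at -0.23, or 0.06 with totals alone. PER3, a repressor of the clock, fell from 18.3, 16.6 and 19.1 CPM to 3.44, 5.07 and 4.44 CPM, while CRY2, another repressor, rose from 22.6, 22.1 and 22.4 CPM to 32.9, 34.2 and 34.1 CPM. TIMELESS, also lower at 11.6, 13.3 and 12.9 CPM against 86.5, 88.1 and 88.2 CPM, acts in DNA replication in human cells. The time of day at collection was not given.

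Growth factor genes were found on both sides. FGF2, a broad mitogen that is also in the secreted factor list, rose from 38.1, 34.7 and 40.1 CPM to 246, 274 and 260 CPM (log2 fold change 2.79 ± 0.27, edgeR adjusted p = 2.79e-07). FGF7, which acts on epithelium, rose from 42.3, 35.7 and 37.4 CPM to 135, 279 and 251 CPM, with irradiated replicate 1 lowest of its group. HGF, another factor for epithelium, rose from 103, 91.6 and 104 CPM to 222, 252 and 237 CPM. FGF1 fell from 35.6, 37.7 and 35.1 CPM to 13.4, 19.2 and 18.5 CPM, PDGFA from 13.5, 14 and 12.2 CPM to 3.51, 3.7 and 3.53 CPM and the receptor PDGFRB from 342, 353 and 356 CPM to 103, 124 and 128 CPM. Over the 37 ligands and receptors of the FGF, PDGF and VEGF families tested, 13 were higher and 10 lower at 0.09. With totals alone 16 were higher and 8 lower at 0.38. Feedback regulators of ERK, the kinase below many of these receptors, had 9 of 27 in each direction, or 11 higher and 8 lower with totals alone, with the phosphatase gene DUSP6 up from 20.5, 21.9 and 22.5 CPM to 68.4, 73 and 75.8 CPM and SPRY4, a Sprouty inhibitor, down from 83.9, 88.9 and 91 CPM to 35.9, 41.3 and 41.9 CPM.

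The largest single rises outside the well-known programs were genes close to silent in proliferating cells. EHF, an ETS factor of epithelia, was at 0.0309, 0.0862 and 0.0547 CPM and then 12.7, 16.1 and 14.1 CPM (log2 fold change 8.10 ± 0.42, edgeR adjusted p = 1.89e-13). CLCA2, a regulator of chloride current, had 0, 0.0431 and 0 CPM and then 2.32, 3.58 and 3.26 CPM. PTCHD4, a patched-like gene, rose from 0.324, 0.172 and 0.273 CPM to 9.31, 17.1 and 14.2 CPM, and ADAMTS19, an extracellular protease, from 0.355, 0.603 and 0.601 CPM to 18.8, 22.5 and 18.4 CPM. CCK, a peptide hormone of gut and brain, was at 0.0927, 0.0862 and 0.0547 CPM and then 4.19, 2.88 and 3.18 CPM. Fitted folds for genes with so few reads in one state depend on the prior count of the fit.

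WNT7B, a ligand of the WNT pathway, had the largest fall among coding genes outside those lists with at least 1 CPM in a group. It stood at 16.6, 17.6 and 16.8 CPM in proliferating and 0.234, 0.224 and 0.35 CPM in irradiated cells (log2 fold change -5.98 ± 0.21, edgeR adjusted p = 3.2e-16). CACNG4, an auxiliary subunit of calcium channels and glutamate receptors, fell from 5.2, 4.01 and 4.35 CPM to 0.0638, 0.298 and 0.0808 CPM. CDKN2C, which encodes the cell cycle inhibitor p18, fell from 69, 71.4 and 64.1 CPM to 6.27, 4.87 and 4.98 CPM. INHBE, an activin subunit induced by amino acid stress, fell from 21.1, 24 and 21.1 CPM to 1.74, 1.86 and 2.02 CPM, and ANOS1, a secreted guidance protein, from 10.4, 9.74 and 9.81 CPM to 0.786, 1.09 and 1.02 CPM. CCND1, the cyclin of early G1, rose from 1021, 1098 and 1041 CPM to 2675, 2655 and 2710 CPM.

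**Figure D3:**
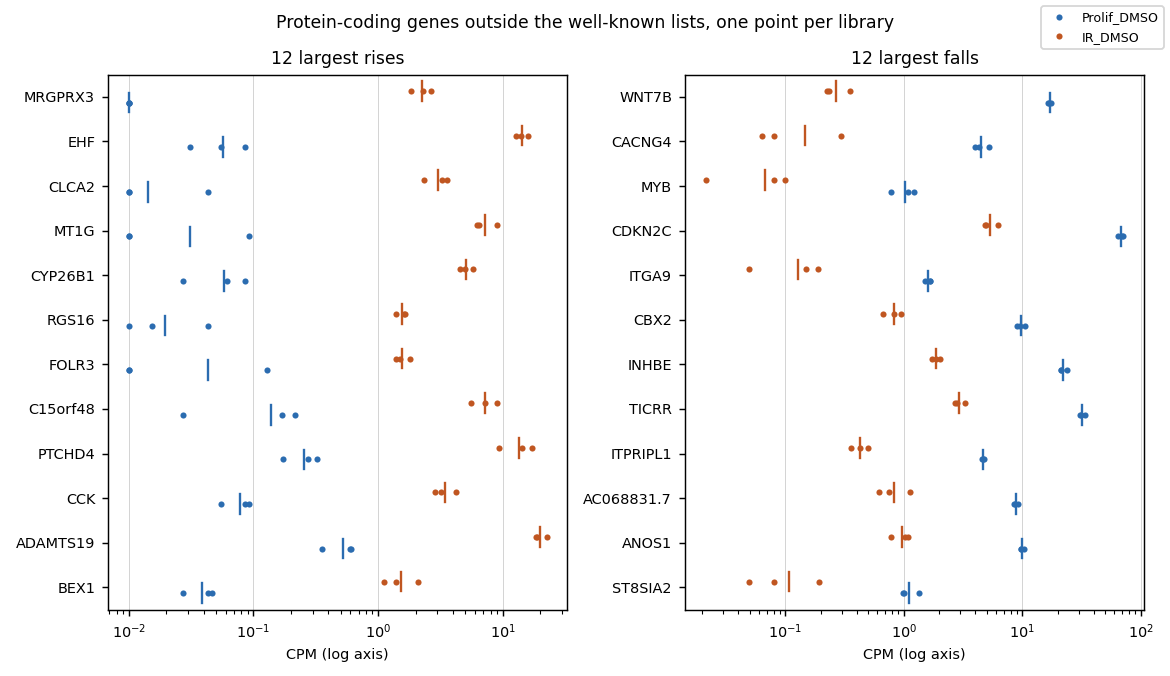
The 12 largest rises (left) and 12 largest falls (right) among protein-coding genes outside the well-known lists, in CPM on a log axis, proliferating in blue and irradiated in orange, each point 1 library and each bar the mean of 3. The groups do not overlap for any gene, because non-overlap was part of the choice, and values of 0 are drawn at 0.01.

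Detection itself was one-sided. With at least 10 reads in each irradiated library and 0 in each proliferating one, 10 genes were seen after irradiation only, and 0 in the reverse case. CCL20 and RSAD2 belong to the well-known lists. MRGPRX3, a receptor of sensory neurons and skin, had 86, 93 and 98 reads, which against a floor of 3 reads over the proliferating group was at least 92.4-fold higher. CYP3A7, the cytochrome of fetal liver, had 35, 40 and 29 reads (at least 34.7-fold higher), and TNFSF14, a TNF family ligand, had 34, 35 and 27 (at least 32-fold higher). The complement gene C9 had 26, 12 and 13 reads. When all libraries were thinned to the smallest, 12 genes met the rule in irradiated cells and 0 in the reverse.

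Long noncoding RNA genes were seldom called lower. Long noncoding RNA genes took 0.62% ± 0.0325 (SD, n = 3) and 0.93% ± 0.009 (SD, n = 3) of reads in proliferating and irradiated cells (two-sided exact permutation p = 0.1, the smallest possible). Of 2657 tested 677 were called higher and 227 lower, 25.5% and 8.54%, at a median of 0.41, against 28.1% and 29.7% of coding genes at 0.01. For genes named as divergent transcripts, which start next to a coding gene on the other strand, 93 of 264 were higher and 9 lower at a median of 0.69. Whether reads were counted by strand was not given, so antisense genes may hold reads of their partners. PURPL, a noncoding RNA of the p53 response, was at 0.0772, 0 and 0 CPM and then 3.78, 4.22 and 4.23 CPM, and LINC02015 at 0, 0.0431 and 0.0273 CPM and then 3.04, 2.98 and 3.37 CPM (log2 fold change 7.30 ± 0.77, edgeR adjusted p = 3.79e-08). The largest fall among noncoding genes with at least 1 CPM in a group was AL590438.1, from 0.942, 1.25 and 1.01 CPM to 0.0638, 0.0248 and 0.0808 CPM. Processed pseudogenes had 33 of 698 genes called higher and 115 lower at a median of -0.42. Low levels moved with this class, since the median noncoding gene had 0.554 CPM against 19.9 CPM for coding genes, and in 4 equal groups of genes by mean level the lowest had 20.6% higher and 5.77% lower at a median of 0.42, and the highest 22.7% and 41.4% at -0.16, or medians of 0.71 and 0.13 with totals alone. The part of expression level in the noncoding result was not tested.

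Zinc finger genes of chromosome 19 were a positional group. Many of these DNA-binding repressors sit there in tandem clusters and silence transposable elements. Of 233 ZNF-numbered coding genes tested on that chromosome 95 were called higher and 32 lower, 40.8% and 13.7%, at a median of 0.29, whereas 240 on other chromosomes had 19.6% higher and 30% lower at -0.06, or 0.23 with totals alone. The 794 other coding genes of chromosome 19 had 27.1% higher and 34.6% lower, or 331 higher and 171 lower with totals alone, where 134 and 15 of the zinc finger genes there were called. Within the range of 2.91 to 8.34 CPM, the middle of these genes' own levels, 45.3% of 117 chromosome 19 zinc finger genes were higher and 9.4% lower, against 35.8% and 24.6% of 1415 other coding genes. ZNF667 (chr19:56439325-56478065) was at 3.34, 2.8 and 3.2 CPM and then 9.95, 10.2 and 9.75 CPM (log2 fold change 1.67 ± 0.17, edgeR adjusted p = 2.16e-08). ZNF432, on the same chromosome, was at 6.22, 6.59 and 6.23 CPM and then 14.7, 16.6 and 16.8 CPM. ZNF714 ran against the group, from 10.9, 12.1 and 16.2 CPM to 3.63, 4.03 and 4.71 CPM. Members have similar sequences, and reads that fit several of them could be lost or split.

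Place along the chromosome and length were weaker axes. Coding genes within 2 Mb of a chromosome end were higher in 23.9% and lower in 34.6% of cases, those between 2 and 5 Mb in 22.8% and 38.3%, and those 40 Mb or more away in 30.6% and 26.4%, with medians of -0.08, -0.11 and 0.08, all above 0 with totals alone. The median level was alike in these bins, at 20.1, 20.4 and 20.1 CPM. Genes with under 2 kb of exons were higher in 35% and lower in 18.8%, and those with 10 kb or more in 23.7% and 32.7%, which turned to 854 genes higher and 457 lower with totals alone. The median level differed between these length groups, at 9.9 and 27.2 CPM, and its part in these shares was not tested. These shares describe genes, which are not independent replicates.

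**Figure D4:**
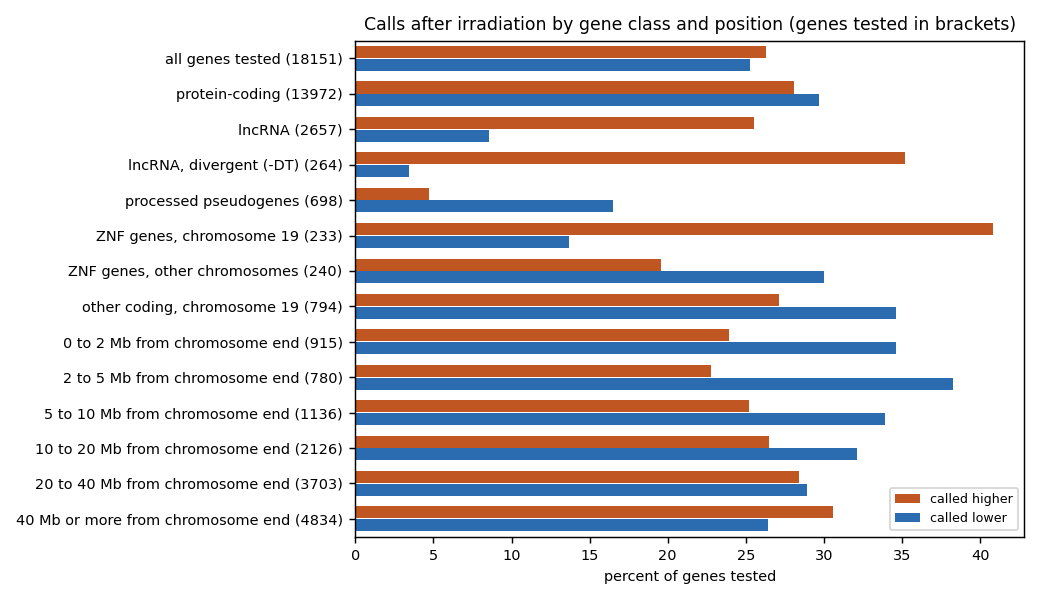
Percent of tested genes called higher (orange) or lower (blue) after irradiation by gene class, for zinc finger genes by chromosome and for coding genes by distance to the nearer chromosome end, with genes tested in brackets. Divergent noncoding genes and chromosome 19 zinc finger genes have the highest shares called higher, 35.2% and 40.8%, and coding genes 2 to 5 Mb from an end the highest share called lower, 38.3%. With library totals alone more genes were called higher than lower in every class shown except processed pseudogenes, at 45 higher and 65 lower.

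Promoter letters differed between the sides. Windows of 250 bases before to 50 after a RefSeq start were matched for 11219 of 13972 coding genes tested, and each motif was searched on both strands. Among genes lower by at least 2-fold (1072 with a window), TTTGAA was in 18% and the E2F core GCGGGAA in 14.2%, against 9.94% and 10.2% of all tested. With the well-known lists left out (836 genes), these shares were 12.7% and 12.4%. Among genes higher by at least 2-fold (1353), the AP-1 site TGANTCA was in 7.17% against 4.64% of all tested, and in 6.5% with the well-known lists left out. The SP site GGGCGG was in 61.9% of these genes against 69.3% of all tested, and their windows had a median GC content of 63.7% against 65%. The motifs can overlap one another, and their presence says nothing of binding.

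The irradiation effect could be set beside that in cells given an MDM2 inhibitor, since those libraries are separate. Of the 9364 genes called with DMSO, 6221 were called in the same direction with RG7388 (66.4% of the DMSO calls and 77.8% of the RG7388 calls) and 120 in the opposite direction. For HDM201 these numbers were 6276 (67% and 74.4%) and 161. The difference between the effects was itself tested, and 7.47% of genes were called for RG7388 and 8.64% for HDM201. Among those called for RG7388, 639 were higher with DMSO and had a smaller rise, no rise or a fall with the compound. Another 20 were higher with a larger rise under the compound. On the lower side, 309 had a smaller fall, no fall or a rise under it, and 179 a larger fall. For HDM201 the counts were 718, 41, 364 and 123. FGF1, for example, had a log2 fold change of -1.09 with DMSO, 0.27 with RG7388 and 0.37 with HDM201.

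Each effect was measured against proliferating cells given the same treatment. A difference between effects can therefore lie in the proliferating or in the irradiated cells, and which of them was not tested. For several genes the irradiation effect was called with DMSO and with neither compound. SLC6A15, with a log2 fold change of 2.89 in DMSO, had 0.23 with RG7388 and 0.23 with HDM201 (edgeR adjusted p of the difference 1.24e-06 and 1.34e-06). PDE4B had 2.24 in DMSO, -0.14 with RG7388 and -0.04 with HDM201 (edgeR adjusted p 1.2e-08 and 1.91e-08). On the lower side ANO1 had -1.90, 0.09 and 0.11 (edgeR adjusted p 1.46e-08 and 1.1e-08), and NRXN3 had -2.22, -0.19 and 0.13 (edgeR adjusted p 1.88e-07 and 2.02e-08). AKR1B1, aldose reductase, rose from 106, 119 and 110 CPM to 802, 724 and 681 CPM with DMSO, a log2 fold change of 2.72, against 0.10 and 0.23 with the compounds (edgeR adjusted p 6.22e-11 and 1.3e-10). EHF still rose with both compounds but by less, with 8.10 in DMSO, 1.66 with RG7388 and 2.79 with HDM201 (edgeR adjusted p 1.82e-05 and 0.000284).

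Among the 43 lists, retinoid genes held the highest share of members with a more positive effect in DMSO than with either compound, and cytoskeleton and adhesion genes the highest shares with a more negative one. Of all 18151 genes tested, 957 had a more positive effect with DMSO than with RG7388 and 399 a more negative one. Against HDM201 these were 1029 and 539. In the iron and heme list 6 of 28 members had a more positive effect with DMSO than with RG7388 and 7 than with HDM201, with 0 more negative in either case. SLC11A2 had 1.82 with DMSO, 0.24 with RG7388 and 0.32 with HDM201 (edgeR adjusted p 9.75e-07 and 2.2e-06), and FTH1 had 1.26, 0.30 and 0.24 (edgeR adjusted p 0.000335 and 0.000163). In the nuclear receptor and retinoid list 14 of 51 were more positive against RG7388 and 17 against HDM201, with 2 and 1 more negative. NR4A2 had 3.73, 1.15 and 0.74 (edgeR adjusted p 3.71e-08 and 3.23e-09). Tubulins, actins and intermediate filaments had 14 of 37 more negative with DMSO than with RG7388 and 8 than with HDM201, integrins and focal adhesion genes 10 and 11 of 48. TUBB4B had -1.89, -1.22 and -1.42 (edgeR adjusted p 0.0168 and 0.0999). In contrast, of the 47 ribosome biogenesis genes 0 were called for either compound, with medians of -0.51 in DMSO, -0.39 with RG7388 and -0.33 with HDM201, and KCNG1, WNT7B and SLC1A5 had no called difference, for example WNT7B with -5.98, -5.87 and -6.27.

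**Figure D5:**
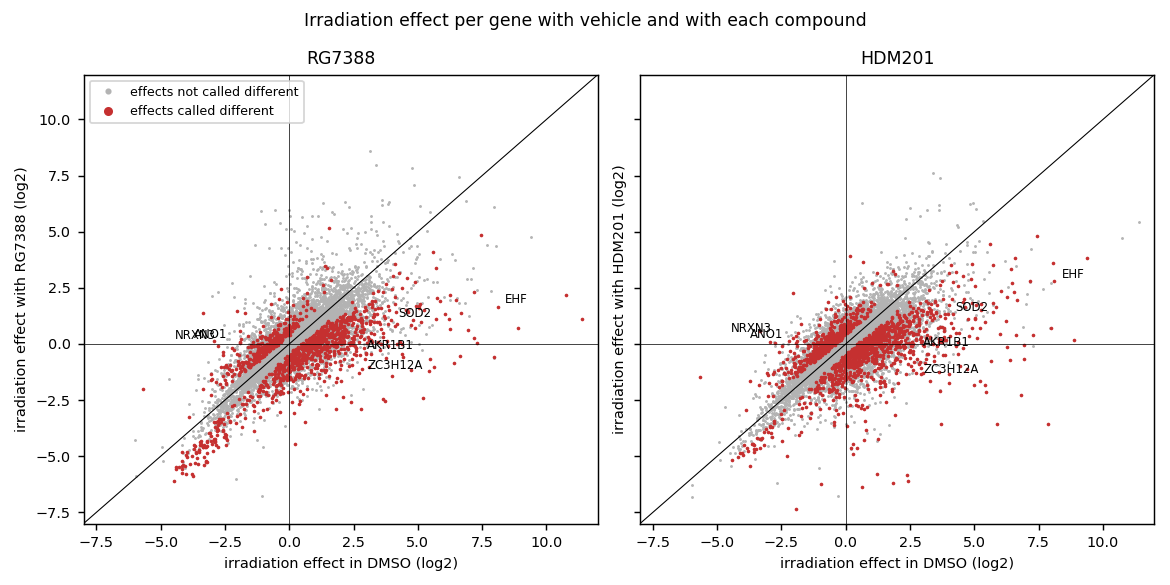
Log2 fold change of irradiated over proliferating cells for 18151 genes with DMSO (horizontal) against that with RG7388 (left) or HDM201 (right), each point 1 gene, the line marking equal effects. Red points, 1356 for RG7388 and 1568 for HDM201, are genes whose effects were called different, of which 957 and 1029 lie below the line, as AKR1B1 does at 2.72 with DMSO against 0.10 and 0.23 with the compounds.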

How the data were processed

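IMR90 RNA was sequenced in 18 libraries, 3 in each of 6 groups. Per the labels and the study's methods, the authors aligned reads with STAR to hg38, and deposited raw read counts per gene from HTSeq and FPKM values from Cufflinks. Tool versions, the annotation release and the strand setting were not stated in the sources read. Of 60668 genes 45 pseudoautosomal Y copies were left out, and 99.46% of the rest matched GENCODE 44. Counts were tested with edgeR 4.0.16 (R 4.3.3), with filterByExpr, TMM scaling (factors 0.924 to 0.973 in proliferating and 1.14 to 1.19 in irradiated cells) and a robust quasi-likelihood fit over all 18 libraries (12 residual degrees of freedom), adjusting p over 18151 genes by Benjamini-Hochberg. Levels are TMM-scaled CPM, and fold changes are log2 irradiated over proliferating. Libraries held 21609198 to 66647700 reads, so low genes are less exact in the smaller ones. Alternatives used other scalings and filters, DESeq2 1.42.0, and limma 3.58.1 on log2 of the deposited FPKM plus 1 or 0.1, where blank FPKM cells were set to 0. The steps were tested on simulated data.

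The gene lists, members and rules were chosen with earlier results of these data known. Named genes were those with the largest changes (at least 1 CPM in a group, no overlap), up to 4 list members with the smallest p and up to 3 called against them, genes detected in one state, and the smallest p for each difference between vehicle and compound. Genes with near-identical copies were outside that rule. The metallothionein, histone and zinc finger genes, the markers, MTF1, C9, DNAH5, FGF2, FGF7, HAS2, HGF, SHMT2, SLC39A8, SLC39A14, SLC40A1, TFRC and TRPA1 were chosen after their values were seen. Shares were compared by exact permutation tests. Promoter sequences came from RefSeq (GRCh38.p14). A few named genes and 1 gene list are not reported here.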

Additional observations from a re-analysis of the deposited data

Results flagged for a closer look

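The irradiation effect differed between vehicle and compound for 1356 genes with RG7388 and 1568 genes with HDM201, by the test of the difference itself (edgeR adjusted p under 0.05). Values below are the DMSO log2 fold change minus that with the compound, for genes among the 5 smallest p in each direction outside the well-known lists. Those lists are not complete, so these genes may still belong to the p53, NF-kB or other well-known programs. Whether a difference lay in the proliferating or in the irradiated cells was not tested. SOD2, the mitochondrial superoxide dismutase, differed by 2.92 against RG7388 and 2.65 against HDM201. AKR1B1 differed by 2.62 and 2.49, VWA5A by 2.98 and 3.11, and ZC3H12A, which encodes a nuclease that degrades inflammatory mRNA, by 3.24 and 3.4. NAMPT, the enzyme that salvages nicotinamide for NAD, differed by 2.76 against RG7388, and RIPOR3 by 2.44 against HDM201. All these rises were larger with DMSO.

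On the other side ANO1 differed by -1.98 against RG7388 and -2.01 against HDM201, and NRXN3 by -2.03 and -2.34. RGMB-AS1 differed by -1.97 against RG7388 and AMIGO2, an adhesion protein, by -1.48 against HDM201. MAP3K7CL differed by -1.48 and -1.79, but its groups overlapped with DMSO, at 29.3, 34.7 and 29.7 CPM in proliferating and 28.4, 30.5 and 32.4 CPM in irradiated cells, and the change was called only with the compounds (log2 fold change 1.44 and 1.76). Groups of 3 libraries were too small for a test of single outlying samples.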

How the results depend on the processing

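The reported fit called 9364 genes. Between 8301 and 9004 were called when 1 of the 6 libraries was left out (8265 shared in direction without irradiated replicate 1), 10232 (8830 shared) without irradiated replicate 1 and proliferating HDM201 replicate 3 (both set apart in earlier work), and 9556 by DESeq2 (9339 shared). Library totals alone gave 7202 higher and 2872 lower (71.5% of calls higher, against 51.0%) and moved the median of all genes by 0.289. Fits to FPKM gave 2415 genes lower with 1 added and 2340 with 0.1, 2504 with a mean FPKM of at least 1, and 2505 when genes listed at 0 FPKM despite 10 or more counts were also left out (14489 tested against 14598), a filter chosen after seeing the data. At least 2-fold, 4131 genes were called, 2457 higher and 1674 lower. The difference from RG7388, called for 1356 genes, ranged from 1020 to 1268 with 1 library left out, and was called for 2204 without both libraries, 861 in the FPKM fit with 0.1, 775 at adjusted p under 0.01 and 709 at 2-fold. For HDM201 (1568) these were 1127 to 1499, 3321, 866, 818 and 769. Under the replicate block 9304 genes were called, 9170 of them shared with the reported calls in direction. Replicate numbers were not used as pairs in the reported fit. Deviations of same-numbered libraries correlated at 0.18, 0.03 and 0.12, and 4 of 6 libraries correlated best with their own number. So few libraries cannot decide whether the numbers pair the samples. MAP3K7CL, at -0.04, turned to 0.25 with library totals and to 0.41, 0.42, 0.41 and 0.41 in the FPKM fits. Over 164 named genes and all alternatives, 2879 of 2925 log2 fold changes kept their direction and side of the threshold, 38 lost the call, 3 gained it and 5 turned.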

Other observations

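Traffic and surface genes outside the comparisons above were mixed. Tetraspanins, which organize membrane patches, had 10 of 24 called higher and 3 lower at a median log2 fold change of 0.27, led by TSPAN11 at 0.988, 0.474 and 0.601 CPM before and 7.42, 8.6 and 7.6 CPM after irradiation. Coat and sorting genes between the ER and the Golgi had 25 of 78 higher and 13 lower at 0.03, or 46 and 3 at 0.32 with library totals alone. MCFD2, part of a cargo receptor for secreted glycoproteins, rose from 236, 238 and 243 CPM to 398, 568 and 559 CPM. SEC24D, a cargo adaptor of COPII vesicles, went the other way, from 257, 255 and 274 CPM to 109, 181 and 194 CPM. Endolysosomal rab and sorting genes had 21 of 67 lower and 16 higher at -0.05, or 0.24 with library totals alone. RAB9A, which returns receptors from late endosomes, rose from 13.8, 15.1 and 14.7 CPM to 28.8, 28.7 and 28.4 CPM, while EHD4, which acts early in endocytosis, fell from 104, 112 and 109 CPM to 45.2, 45 and 46.5 CPM.

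Targets of YAP and TEAD, which respond to cell spreading and tension, had 14 of 34 lower and 7 higher at -0.19, or 0.10 with library totals alone. AXL, a receptor tyrosine kinase, fell from 769, 837 and 819 CPM to 277, 281 and 282 CPM and TEAD4 from 32.7, 31.9 and 29.3 CPM to 6.67, 7.31 and 6.3 CPM, whereas F3, the tissue factor that starts coagulation, rose from 376, 374 and 408 CPM to 920, 856 and 829 CPM. Gap and tight junction genes had 9 of 32 in each direction at -0.21, or 0.08 with library totals alone. GJC1, a connexin, fell from 87.5, 92.5 and 98.6 CPM to 21.6, 24 and 26.5 CPM and GJD3, another, rose from 1.78, 1.21 and 1.39 CPM to 8.69, 7.5 and 8.57 CPM. Clustered protocadherins, whose transcripts share exons within a cluster and whose reads may be split, had 10 of 40 lower and 3 higher at -0.23, or 0.06 with library totals alone.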
